A study of Ictidomys tridecemlineatus with 31 samples.

Results

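Heat shock chaperones were examined across the hibernation cycle in kidneys of 13-lined ground squirrels. The 10 genes were Hspa1a, Hspa1b, Hspa8, Hsph1, Hsp90aa1, Dnaja1, Dnajb1, Hspd1, Hspe1, and Bag3. They were chosen by name from a table of 12863 genes, and all 10 were present in it. Where more than 1 row carried a symbol, the row with the highest mean was used, which applied to Hsph1, Hsp90aa1, and Hspd1. In these kidneys 9 of the 10 had their highest mean, not adjusted for sex or sequencing experiment, in summer active animals. The largest drops toward the cold phases of the hibernation season were those of Hsph1 and Hspa1b. At q under 0.05 (p adjusted over all genes), only Hspa8, Hspd1, and, narrowly, Dnaja1 were higher in summer than in the next highest state.

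Chaperones bind unfolded or partly folded proteins, keep them from clumping, and help them to fold or hand them on for breakdown. Hsp70 proteins (Hspa1a, Hspa1b, Hspa8) grip short exposed stretches of a client and let go in a cycle driven by ATP. J-domain proteins (Dnaja1, Dnajb1) deliver clients and start that cycle, and the nucleotide exchange factors Hsph1 and Bag3 reset it. Hsp90 (Hsp90aa1) receives signaling proteins at a late stage of folding, and the chaperonin Hspd1 with its lid Hspe1 folds proteins inside mitochondria. In most vertebrate tissues heat, protein damage, and reperfusion release the transcription factor Hsf1, which switches on Hspa1a, Hspa1b, Hsph1, Dnajb1, and Bag3 strongly, whereas Hspa8 is made at all times. A hibernating kidney passes repeatedly through near-freezing torpor and fast rewarming, and cells of the renal medulla also use chaperones against high salt and urea.

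Each of the 31 kidneys came from 1 animal with no genetic or drug treatment, and body temperature assigned the animals to 6 states. Summer active (SA) and spring dark (SpD) animals held a constant warm temperature, the former while fattening and the latter in the dark hibernaculum after their last torpor bout. The other 4 states belong to the hibernation season, namely interbout aroused (IBA) animals that were warm between bouts, entrance (Ent) animals that were cooling, early arousing (EAr) animals that had begun to rewarm, and late arousing (LAr) animals further along the same rewarming. Both sexes were present in every state, and no ages were used here. The comparisons use 29 animals, 4 SA and 5 of each other state (16 females and 13 males), and K113 (LAr) and K137 (SA), which the study left out of its tests as outliers, are shown apart. Experiment 1, with one library kit, held 9 of the animals, 3 in each of the states IBA, Ent, and SpD. The other 22 were in experiment 2, with another kit, to which SA, EAr, and LAr belonged entirely.

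Values are regularized log (rlog) values on the log2 scale, corrected for batch by the authors, so that a difference of 1 is a doubling. They ran from 4.11 to 19.79 over all genes, with animal medians between 9.74 and 9.88. Counts are not in the table, the depth behind each value is unknown, and levels of different genes cannot be compared because they are not per length. All 10 proximal tubule markers, 4 of 5 thick limb and distal tubule markers, and all 7 collecting duct and inner medulla markers were in the table, and 0 of 7 adrenal cortex markers were listed by symbol. The mean of the proximal tubule list was 14.95 to 15.33 in the SA animals, above every animal of the 4 hibernation states. It was 13.90 to 14.66 in IBA, 14.08 to 14.94 in Ent, 14.59 to 14.94 in EAr, and 14.52 to 14.89 in LAr. SpD animals read 13.54 to 15.11. The mean of the collecting duct and inner medulla list was 11.10 to 12.04 in SA, 10.81 to 12.49 in IBA, and 10.78 to 11.78 in Ent. It was 10.65 to 11.62 in EAr, 10.67 to 10.98 in LAr, and 11.34 to 12.94 in SpD. All 5 macrophage and B lymphocyte markers were present, with means of 8.35 to 8.73 in SA, above every EAr (7.95 to 8.32) and LAr (7.87 to 8.26) animal, 7.96 to 9.06 in IBA, 7.91 to 8.53 in Ent, and 7.74 to 8.66 in SpD. The 5 fibroblast markers averaged 9.86 to 10.50 in SA, 9.22 to 10.20 in IBA, 9.07 to 10.39 in Ent, 9.27 to 10.48 in EAr, 8.83 to 10.30 in LAr, and 9.46 to 10.71 in SpD. At q under 0.05 across states, against 46.1% of all genes, 4 of 10 proximal tubule and 0 of 4 thick limb and distal tubule markers differed. So did 5 of 7 collecting duct and inner medulla, 1 of 5 macrophage and B lymphocyte, and 1 of 5 fibroblast markers. The part of these markers in the chaperone differences was not tested. In whole kidney RNA, fewer cells of a type and less RNA per cell cannot be told apart.

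Across the 6 states, 5 of the 10 chaperones differed at q under 0.001 by the F test of limma, which adjusts p over all genes (q), against 9.34% of all genes. They were Hsph1 (q = 4.9e-05), Hspa8 (q = 1.6e-04), Dnaja1 (q = 3.9e-04), Hspd1 (q = 5.6e-04), and Hsp90aa1 (q = 6.2e-04). At q under 0.05 the count was 9, against 46.1% of all genes, with Dnajb1 (q = 0.0012), Hspa1b (q = 0.0055), Hspe1 (q = 0.0067), and Hspa1a (q = 0.011) added. Bag3, which links Hsp70 to autophagy, did not pass (q = 0.22). The mean, taken without the terms for sex and experiment, was highest in SA for 9 of the 10 and in IBA for Hsp90aa1. It was lowest in EAr for 5, in Ent for 2, in LAr for 2, and in IBA for 1. The fit did not keep the top place for Hspa1b and Hsp90aa1. In it, SA minus SpD was -0.02 ± 0.34 for Hspa1b, and IBA minus SA was -0.03 ± 0.08 for Hsp90aa1, neither passing q under 0.05. With K113 and K137 included, 0 of the 10 passed q under 0.001 (5.58% of all genes did) and 7 passed q under 0.05 (32.8%), and 8 had an unadjusted p under 0.05 (46.2%). Among the 29 animals the count at q under 0.001 fell to 1 without K138 (6.51% of all genes) or K139 (6.43%), to 2 without K140 (6.9%), and to 3 without K104 (7.06%), K109 (7.56%), K112 (7.38%), or K115 (7.4%), of which the first 3 are SA animals.

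**Figure D1:**
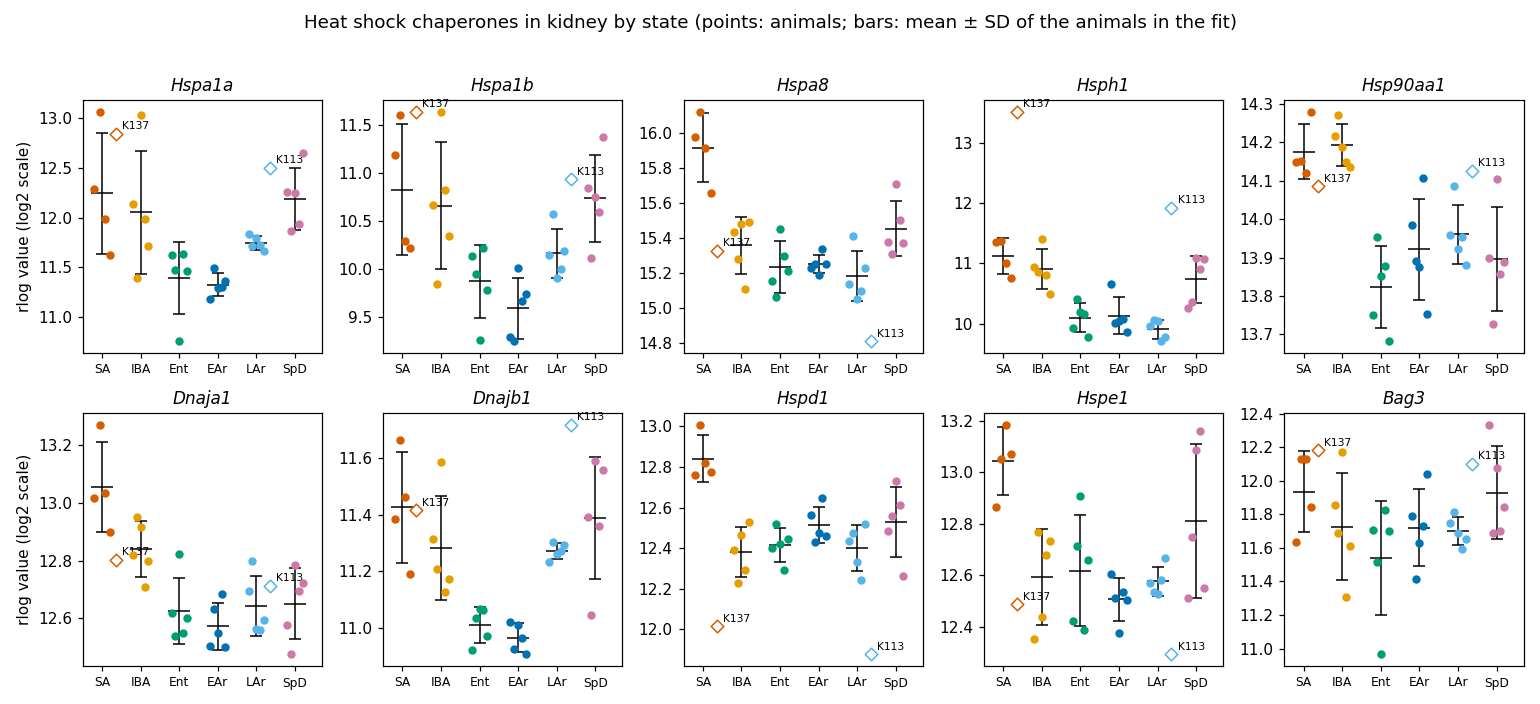
Values of the 10 heat shock chaperones (y axis, rlog value, log2 scale, each panel with its own range) in every kidney by state (x axis). Points are animals, bars are the mean ± SD of the 29 animals compared, and open diamonds are K137 (SA) and K113 (LAr). The SA mean lies highest in every panel but that of Hsp90aa1, though SA animals overlap those of the next highest state in all of these but Hspd1. Hsph1 of K137 (13.52) and K113 (11.93) lies above every other animal.

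Hspa1a and Hspa1b encode the same stress-inducible cytosolic Hsp70, the textbook targets of Hsf1. Their genes (gene21455 and gene21454 in the table) are near-identical copies in mammals, so how reads were split between them is uncertain. Hspa1b read 11.19, 11.61, 10.29, and 10.22 in the SA animals, 10.67, 9.84, 11.64, 10.82, and 10.35 in IBA, and 10.13, 9.95, 9.26, 10.23, and 9.79 in Ent. It read 9.30, 9.25, 10.01, 9.67, and 9.74 in EAr, 10.15, 10.58, 9.91, 10.004, and 10.19 in LAr, and 10.85, 10.12, 10.75, 10.59, and 11.38 in SpD. All EAr animals were thus below all SA and all SpD animals, while SA and IBA were each spread over more than 1 log2 unit. Relative to SA, Hspa1b was 1.24 ± 0.31 lower in EAr (log2 difference -1.24 ± SE 0.31, q = 0.0054, a 2.36-fold difference), and relative to SpD the difference of EAr was -1.27 ± 0.33 (2.4-fold, q = 0.0099). IBA stood 1.19 ± 0.33 above EAr (2.29-fold, q = 0.016).

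The state means of Hspa1a followed the same order over a smaller span (0.91 from highest to lowest on the log2 scale, against 1.23 for Hspa1b). Its animals ranged from 11.63 to 13.06 in SA, 11.39 to 13.03 in IBA, 10.76 to 11.63 in Ent, 11.18 to 11.50 in EAr, 11.66 to 11.83 in LAr, and 11.87 to 12.64 in SpD. K1 (IBA) and K139 (SA) were the 2 highest and K8 (Ent) the lowest. The EAr difference was -0.91 ± 0.26 from SA (q = 0.013) and -0.88 ± 0.28 from SpD (q = 0.030), with no overlap in either. Between LAr and EAr the 2 groups did not overlap either, with LAr 0.42 ± 0.25 higher, yet limma did not call this step (unadjusted p = 0.11, q = 0.71). Within SA and IBA the SDs of both genes were 0.61 to 0.68, the widest spread of any member in any state, and within EAr they were 0.12 and 0.32.

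Hspa8 encodes the constitutive cytosolic Hsp70, which also strips clathrin coats from vesicles. It read 15.98, 16.12, 15.91, and 15.65 in the SA animals and 15.43, 15.28, 15.48, 15.11, and 15.49 in IBA. The lowest SA animal was thus above every IBA animal. Ent animals read 15.15, 15.06, 15.45, 15.30, and 15.21, EAr animals 15.23, 15.25, 15.19, 15.33, and 15.25, LAr animals 15.14, 15.41, 15.05, 15.09, and 15.23, and SpD animals 15.38, 15.31, 15.71, 15.50, and 15.37. The 4 hibernation states ran together between 15.05 and 15.49, and 1 SpD animal (K6) reached into the SA range. Relative to SA the difference was -0.59 ± 0.12 in IBA (q = 0.0015), -0.71 ± 0.12 in Ent (q = 7.2e-04), -0.66 ± 0.11 in EAr (q = 1.5e-04), and -0.74 ± 0.11 in LAr (q = 4.1e-05, a 1.67-fold difference). SpD was also below SA, with SA 0.49 ± 0.12 higher (q = 0.015). Including K113 and K137, whose Hspa8 values were below those of the other LAr and SA animals, q became 0.040 in IBA, 0.016 in Ent, 0.0045 in EAr, and 3.5e-04 in LAr.

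Hsph1 (Hsp110) is both a relative of Hsp70 and its exchange factor, and works with Hsp70 and J-domain proteins to pull aggregates apart. Its values were 11.35, 11.37, 11.01, and 10.76 in SA and 10.95, 10.86, 11.41, 10.81, and 10.50 in IBA. They were 9.94, 10.41, 10.19, 10.16, and 9.79 in Ent, 10.67, 10.01, 10.04, 10.07, and 9.87 in EAr, 9.96, 10.06, 10.04, 9.71, and 9.78 in LAr, and 10.27, 10.36, 11.09, 10.91, and 11.07 in SpD. Every Ent and LAr animal was below every SA and IBA animal, and among the EAr animals only K154 (10.67) reached the IBA range. The difference from SA was -1.10 ± 0.21 in Ent (q = 0.0014), -0.97 ± 0.19 in EAr (q = 6.1e-04), and -1.23 ± 0.19 in LAr (q = 5.1e-05), the last a 2.34-fold difference. IBA was 0.29 below SA (-0.29 ± 0.21, 95% confidence interval -0.71 to 0.14), a difference that did not pass (q = 0.32). Within the torpor-arousal cycle, Hsph1 was 0.81 ± 0.17 lower in Ent than in IBA (log2 difference -0.81, q = 0.0046) and 0.94 ± 0.19 higher in IBA than in LAr (q = 0.0025, 1.92-fold). With K113 and K137 included, the LAr difference from SA was -1.34 (q = 0.011), the EAr difference -1.43 (q = 0.012), and IBA was 0.59 above LAr (q = 0.41).

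Hsp90aa1, the inducible cytosolic Hsp90, showed another order, with IBA level with SA. Its values were 14.15, 14.15, 14.12, and 14.28 in SA and 14.22, 14.27, 14.19, 14.15, and 14.14 in IBA, and the ranges overlapped (log2 difference of IBA from SA -0.03 ± 0.08, 95% confidence interval -0.20 to 0.14). They were 13.75, 13.95, 13.85, 13.88, and 13.68 in Ent, 13.98, 13.89, 13.88, 14.11, and 13.75 in EAr, 13.96, 14.09, 13.92, 13.95, and 13.88 in LAr, and 13.90, 13.73, 14.11, 13.86, and 13.89 in SpD. No animal of these 4 states reached the lowest SA or IBA animal. The largest step was between IBA and Ent, which differed by -0.37 ± 0.07 (q = 0.0018), and SpD was also below IBA (-0.30 ± 0.07, q = 0.0073) and SA (SA 0.33 ± 0.08 higher, q = 0.017). The largest difference of Hsp90aa1 between any 2 states, SA over Ent, was 1.32-fold.

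Dnaja1, a J-domain protein that brings clients to Hspa8, was highest in SA and close to level in the 4 states other than SA and IBA. It read 13.02, 13.27, 13.03, and 12.90 in SA, 12.82, 12.95, 12.92, 12.71, and 12.80 in IBA, and 12.62, 12.54, 12.82, 12.55, and 12.60 in Ent. It read 12.50, 12.63, 12.55, 12.68, and 12.50 in EAr, 12.69, 12.80, 12.56, 12.56, and 12.59 in LAr, and 12.57, 12.47, 12.78, 12.70, and 12.72 in SpD. The lowest SA animal (12.90) was above every Ent, EAr, LAr, and SpD animal. Differences from SA were -0.46 ± 0.09 in Ent (q = 0.0019), -0.48 ± 0.08 in EAr (q = 1.9e-04), and -0.42 ± 0.08 in LAr (q = 6.2e-04), and SA was 0.43 ± 0.09 above SpD (q = 0.0071). The step from SA to IBA was smaller (-0.25 ± 0.09, q = 0.049). It no longer passed q under 0.05 with K113 and K137 included. Leaving out any of many single animals also lost it, among them K139 (q = 0.19) and K104 (q = 0.18).

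Dnajb1 is the main inducible partner of Hsp70 and feeds back on Hsf1. Its animals ranged from 11.19 to 11.66 in SA, 11.13 to 11.59 in IBA, 10.92 to 11.07 in Ent, 10.91 to 11.02 in EAr, 11.23 to 11.30 in LAr, and 11.05 to 11.59 in SpD. Ent and EAr formed a low and narrow band, and no animal of these 2 states reached the lowest SA, IBA, or LAr animal. Relative to SA, the difference was -0.43 ± 0.11 in Ent (q = 0.010) and -0.46 ± 0.10 in EAr (q = 0.0016), but -0.15 ± 0.10 in LAr (q = 0.25). LAr was 0.31 ± 0.09 above EAr without overlap, the lowest p of any member for this step (unadjusted p = 0.0030), but it did not pass over all genes (q = 0.22). EAr was also below SpD (-0.40 ± 0.10, q = 0.0095), as was Ent (-0.38 ± 0.09, q = 0.012).

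Bag3, which ties Hsp70 to small heat shock proteins and autophagy, ranged from 11.64 to 12.13 in SA, 11.31 to 12.17 in IBA, 10.97 to 11.82 in Ent, 11.41 to 12.04 in EAr, 11.59 to 11.81 in LAr, and 11.69 to 12.33 in SpD. All 6 ranges overlapped. Its largest difference was between Ent and SA (-0.45 ± 0.19, 95% confidence interval -0.83 to -0.06), which did not pass over all genes (q = 0.11).

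The mitochondrial pair Hspd1 (Hsp60) and Hspe1 (Hsp10) form one folding chamber and share a divergent promoter in mammals. Hspd1 read 12.76, 13.01, 12.82, and 12.78 in SA and 12.39, 12.23, 12.46, 12.29, and 12.53 in IBA. It read 12.40, 12.52, 12.42, 12.29, and 12.45 in Ent, 12.56, 12.43, 12.48, 12.65, and 12.46 in EAr, 12.44, 12.47, 12.33, 12.24, and 12.52 in LAr, and 12.49, 12.56, 12.73, 12.61, and 12.26 in SpD. All SA animals were above all animals of the other 5 states, and IBA (12.38) and LAr (12.40) had the lowest means. The IBA difference from SA was -0.51 ± 0.09 (q = 2.7e-04), followed by -0.48 ± 0.09 in Ent (q = 0.0012), -0.45 ± 0.08 in LAr (q = 2.3e-04), and -0.32 ± 0.08 in EAr (q = 0.0050). With K113 and K137 included these became -0.34 (q = 0.14) in IBA, -0.30 (q = 0.23) in Ent, -0.36 (q = 0.042) in LAr, and -0.15 (q = 0.47) in EAr, and the q across states 0.17.

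Hspe1 ranged from 12.86 to 13.18 in SA, 12.35 to 12.77 in IBA, 12.39 to 12.91 in Ent, 12.38 to 12.61 in EAr, 12.53 to 12.67 in LAr, and 12.51 to 13.16 in SpD. SA did not overlap with IBA, EAr, or LAr. The difference from SA was -0.45 ± 0.13 in IBA (q = 0.016), -0.52 ± 0.12 in EAr (q = 0.0024), and -0.48 ± 0.12 in LAr (q = 0.0042). SpD animals fell at both ends of their range, with K6 and K84 at 13.09 and 13.16 and the other 3 at 12.75 or below.

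**Figure D2:**
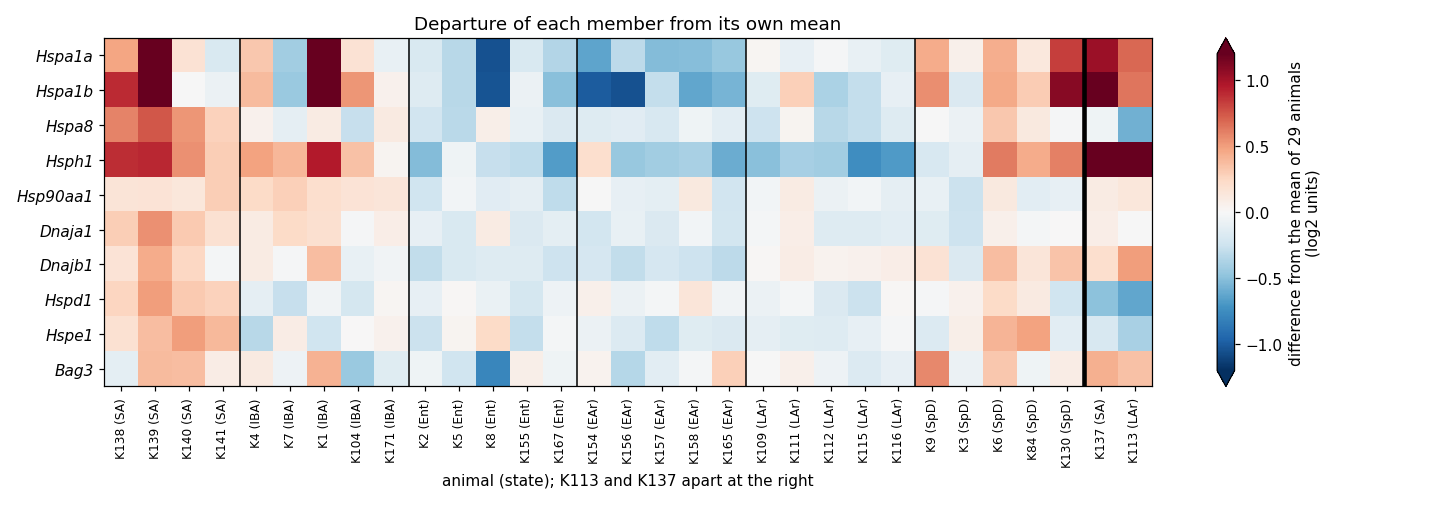
Difference of each chaperone (rows) from its own mean over the 29 animals (color, log2 units, with ends of the scale marking values beyond it) in each kidney (columns, grouped by state, K137 and K113 at the right). Red cells concentrate in SA. In Ent, EAr, and LAr the state means lie below those of the 29 animals, except Hspd1 in EAr and Dnajb1 in LAr. IBA and SpD are mixed, with Hspa8, Hspd1, Hspe1, and Bag3 below in IBA and Hsp90aa1 and Dnaja1 below in SpD. Among the strong columns in the Hspa1a and Hspa1b rows are those of K139, K1, and K8. In the Hspa1b row, K130 (SpD, 11.38) and K156 (EAr, 9.25) are also strong.

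The table held 3 further rows with the symbol of a member, which were not used above. They were named by a match to a human sequence and had lower means, 7.38 for Hsph1, 12.21 for Hsp90aa1, and 11.05 for the Hspd1-like row. Over the 29 animals they correlated with the rows used at r = 0.96, 0.79, and 0.89, a description only, since such rows may share reads. Used instead, they gave a q across states of 3.5e-05 for Hsph1, 0.030 for Hsp90aa1, and 0.0045 for Hspd1, so the calls of the latter 2 at q under 0.001 held for 1 row of each symbol only.

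The comparisons with SA ask how kidneys of the hibernation season differ from those of summer. All 10 fitted differences were below 0 in IBA, Ent, EAr, and LAr alike, and these 4 comparisons share the same 4 SA animals. The median difference of the 10 was -0.25 in IBA, -0.47 in Ent, -0.50 in EAr, and -0.46 in LAr, beside medians over all genes of 0.03, 0.00, 0.00, and 0.00. In EAr, 3 members were lower at q under 0.001 (Hspa8, Hsph1, and Dnaja1), against 2.6% of all genes, and 9 at q under 0.05, against 12.3%. No overlap with SA was found for 9 members, every one but Bag3, against 26.4% of genes. In LAr, 4 were lower at q under 0.001 (the same 3 and Hspd1), against 2.68%, and 6 at q under 0.05, against 13.7%, with 6 not overlapping (29.2% of genes). Higher than in SA at q under 0.05 were 0 members in EAr, against 11.8% of genes, and 0 in LAr, against 13.7%.

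In Ent, only Hspa8 was lower than in SA at q under 0.001, against 0.56% of all genes, 7 were lower at q under 0.05 (8.21%), and 6 did not overlap (14.1%). In IBA, Hspd1 was the one member lower than in SA at q under 0.001, against 2.46%, and 4 were lower at q under 0.05 (Hspd1, Hspa8, Hspe1, and Dnaja1, against 12.5%), with 3 not overlapping (18.8%). The 4 members lower in IBA thus comprise both mitochondrial chaperones, and the stress-inducible Hspa1a and Hspa1b differed from SA by -0.17 ± 0.29 and -0.05 ± 0.34. With all 31 animals the counts at q under 0.001 were 0 in IBA and Ent and 1 in EAr and LAr, against 0.381%, 0.179%, 2.8%, and 4.54% of all genes in either direction. At q under 0.05 they were 1 in IBA (10% of genes), 5 in Ent (6.16%), 8 in EAr (19.1%), and 5 in LAr (23.5%). Single animals moved these counts. In EAr the count at q under 0.001 was 0 without K139 and 1 without K138, in LAr it was 2 without K139 or K115, and in IBA it was 0 without K139, K140, or K104 and 2 without K141 or K5. In Ent it was 0 without any 1 of K138, K139, K140, K4, K1, K104, K2, K5, K155, K167, K154, K156, K157, K165, K109, or K115, 2 without K141, K7, K171, K8, K116, K9, or K130, and 3 without K3.

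**Figure D3:**
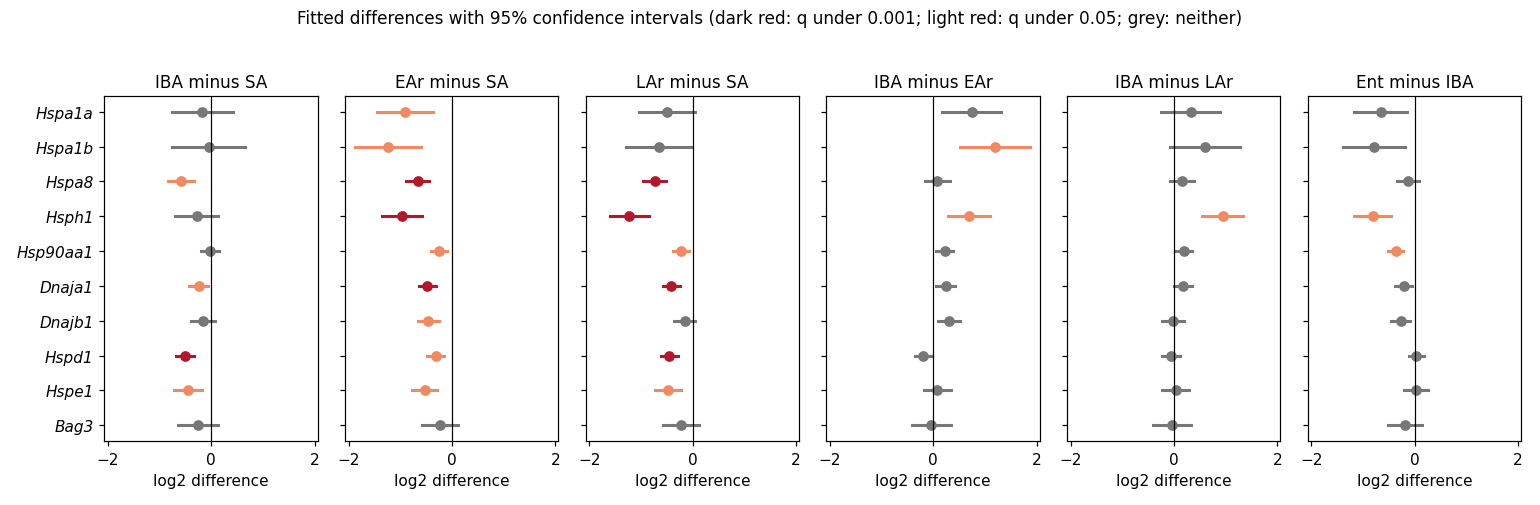
Fitted log2 differences (x axis) of the 10 chaperones (y axis) in 6 comparisons of states, with points for the estimate and lines for the 95% confidence interval. Dark red marks q under 0.001, light red q under 0.05, and gray neither. The estimates for IBA, EAr, and LAr minus SA all lie left of 0, with Hspa1b in EAr (-1.24) and Hsph1 in LAr (-1.23) the farthest.

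Within the torpor-arousal cycle, the comparison of Ent with IBA asks what changes as warm animals cool. No member passed q under 0.001 (0.746% of all genes did), 2 were lower in Ent at q under 0.05 (Hsph1 and Hsp90aa1, against 7.61%), and 6 had an unadjusted p under 0.05 (29.4%). Hspa1a, Hspa1b, Dnaja1, and Dnajb1 differed by -0.66 ± 0.25, -0.79 ± 0.29, -0.21 ± 0.08, and -0.27 ± 0.09, with q from 0.053 to 0.076. Hspd1 and Hspe1 differed by 0.03 ± 0.07 and 0.02 ± 0.11, with 95% confidence intervals of -0.12 to 0.19 and -0.20 to 0.25. The animals of 3 members did not overlap, against 7.74% of genes. Without K3, a SpD animal, Hsp90aa1 passed q under 0.001, and with K113 and K137 included 1 member, Hsp90aa1, passed q under 0.05 (7.46% of genes). In experiment 2 alone 0 members did (0.257% of genes).

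From Ent to EAr no member passed q under 0.001 (0.132% of genes) or q under 0.05 (0.257%), none had an unadjusted p under 0.05 (7.16%), and none separated the groups (1.2%). The widest interval was that of Hspa1b (-0.40, 95% confidence interval -1.08 to 0.28). For Hsp90aa1 it was -0.01 to 0.31. From EAr to LAr, again no member passed either threshold (0.295% and 0.575% of genes), and Dnajb1 alone had an unadjusted p under 0.05 (8.33%). The animals of 2 members, Hspa1a and Dnajb1, did not overlap (6.84% of genes), both higher in LAr. Hspa1b was 0.59 ± 0.29 higher in LAr (unadjusted p = 0.056), whereas Hsph1 was at -0.26 ± 0.18.

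IBA against LAr compares the warm end of an arousal with its rewarming phase. No member passed q under 0.001 (1.43% of genes), and Hsph1 was the 1 member higher in IBA at q under 0.05, against 9.93% of genes. Hsp90aa1 had an unadjusted p of 0.023 (0.19 ± 0.08, q = 0.090), and these 2 members were the ones whose groups did not overlap (13.7%). Without K171, Hsph1 passed q under 0.001, and with K113 and K137 included no member passed q under 0.05 (8.43% of genes). IBA against EAr spans the whole rewarming. There, 0 passed q under 0.001 (1.58%), 2 were higher in IBA at q under 0.05 (Hspa1b and Hsph1, against 9.56%), and 7 had an unadjusted p under 0.05 (32.4%). Of these 7, Hspd1 pointed the other way, at -0.19 ± 0.08 in IBA relative to EAr (q = 0.11). Hsp90aa1, Dnaja1, and Dnajb1 did not overlap between IBA and EAr, against 13.4% of genes. With all 31 animals 1 member, Hspa1b, passed q under 0.05 (10.4% of genes). In experiment 2 alone neither did (9.33% of genes), with Hspa1b at 1.06 (q = 0.071) and Hsph1 at 0.42 (q = 0.18), nor in the fit of IBA and EAr alone (2.29% of genes), with 0.90 (q = 0.28) and 0.28 (q = 0.40).

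Spring dark animals are warm like SA and IBA animals but belong to another point of the year. Against IBA, 0 members passed q under 0.001 (1.25%), and Hsp90aa1 was the 1 member lower in SpD at q under 0.05 (5.42%) and the 1 whose animals did not overlap (6.51%). Against SA, 0 passed q under 0.001 (0.0544%), and 4 were higher in SA at q under 0.05 (Hspa8, Hsp90aa1, Dnaja1, and Hspd1, against 5.47%), with 3 not overlapping (9.37%). For Hspa1a and Hspa1b, SA and SpD differed by 0.03 ± 0.29 and -0.02 ± 0.34, the interval of the latter being -0.73 to 0.68. Relative to SpD, 3 members were lower in EAr at q under 0.05 (Hspa1a, Hspa1b, and Dnajb1, against 10.2%), 3 in Ent (Hspa1a, Hsph1, and Dnajb1, against 5.95%), and 1 in LAr (Hsph1, against 10.6%), with none at q under 0.001 (1.98%, 0.63%, and 2.01% of genes in either direction). Higher than in SpD at q under 0.05 were 0 in EAr (9.02%) and 0 in LAr (8.52%). With all 31 animals the counts at q under 0.05 were 1 for SpD and IBA (7.74% of all genes in either direction), 1 for SA and SpD (0.972%, against 10.5% in 29 animals), 3 for EAr (13.4%), 1 for Ent (6.26%), and 0 for LAr (12.3%). The comparisons with SpD also rested on K130, without which 1 member passed q under 0.05 against SA (0.739% of genes), 0 in EAr (8.41%), 1 in Ent (8.2%), and 0 in LAr (7.05%). The call of Hsp90aa1 between SpD and IBA was lost in experiment 2 alone, where 0 members passed (7.53% of genes). LAr and Ent differed for 0 members at either threshold (0.225% and 0.762% of genes), and 2 did not overlap (3.13%).

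Each member gives 5 pairs of neighboring states when its 6 state means are put in order, 50 in all. The order is that of means without the sex and experiment terms. Fitted differences reverse it for some neighbors, such as SA and SpD for Hspa1b (-0.02 ± 0.34). Of these neighbors 0 differed at q under 0.001 and 4 at q under 0.05, and 7 had an unadjusted p under 0.05. The 4 were SA above SpD for Hspa8 and Hspd1, SA above IBA for Dnaja1, and SA above LAr for Hsp90aa1 (0.22 ± 0.07 on the log2 scale, q = 0.030). That of Dnaja1 was lost on leaving out any of many single animals. For 4 of the 50 neighbors the animals did not overlap, namely SA above SpD for Hspd1, SA above LAr for Hsp90aa1, and LAr above Ent for Hspa1a (q = 0.65) and Dnajb1 (q = 0.30), of which the latter 2 did not pass. The other 44 neighbors overlapped and did not pass. The whole span from highest to lowest state mean ran from 0.37 for Hsp90aa1 to 1.23 for Hspa1b, beside SDs within a state of 0.03 to 0.68 (median 0.16).

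No member differed by sex (lowest q = 0.81, against 0.218% of genes called at q under 0.05) or by experiment (lowest q = 0.88, against 0.0389%). The batch correction had already made the means of both experiments equal for all genes, so the test by experiment was run on leveled values. Because SA, EAr, and LAr lie in experiment 2 only, such leveling can also shift them against IBA, Ent, and SpD. State means, ranges, overlaps, and standardized means may carry that shift, whereas the fitted differences include a term for experiment. Of IBA, Ent, and SpD, the states with animals in both experiments, Ent minus IBA was negative in each experiment for 7 of 10 members. Hsp90aa1 differed by -0.37 in experiment 1 and -0.36 in experiment 2, Hsph1 by -0.89 and -0.68, and Hspa1b by -0.94 and -0.58, whereas Bag3 turned from -0.51 to 0.30. Ent minus SpD was negative in both experiments for 9 members, and SpD minus IBA had one sign in both for 6, with Hsph1 at -0.50 in experiment 1 and 0.33 in experiment 2. The interaction of state and experiment for Hsph1 had an unadjusted p of 0.013 and did not pass over all genes (q = 0.34). SA, EAr, and LAr have no animal in experiment 1, so no such comparison could be made for them.

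K113 and K137 stood apart from their states in many genes, with 35.6% of all genes above and 37.2% below the range of the other 5 LAr animals in K113, and 33.9% above and 29.5% below that of the other 4 SA animals in K137. In K113, 6 members were above the range, 3 below, and 1 within it. In K137, 3 were above, 5 below, and 2 within. Hsph1 differed most in both, at 11.93 in K113 against 9.71 to 10.06 in the others (2.01 above their mean, 4.04-fold) and 13.52 in K137 against 10.76 to 11.37 (2.39 above, 5.26-fold). By this difference it ranked 91 among all genes in K113 and 37 in K137. Hspa8, Hspd1, and Hspe1 were below the range in both, with Hspd1 at 11.88 in K113 (-0.52) and 12.01 in K137 (-0.83).

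Hspa1b was above the range in both animals, at 10.94 (0.77 above the mean of the others) and 11.64 (0.82 above), as was Bag3, at 12.10 and 12.18. Dnajb1 was 0.45 above in K113 and -0.01 from the mean in K137, so the inducible partner did not follow Hsph1 in both. In the same 2 animals the mean of the collecting duct and inner medulla markers was 12.97 and 13.65, above the range of every state, and that of the proximal tubule markers was 13.72 and 14.15. K130, a SpD animal kept in the comparisons, had marker means of 12.94 and 13.54, close to those of K113, and its Hsph1 (11.07) was within the range of the other 4 SpD animals. It had 2 members above (Hspa1a and Hspa1b), 1 below (Hspd1), and 7 within, beside 32.7% of all genes above and 28.4% below. The part of tissue composition in these values was not tested.

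**Figure D4:**
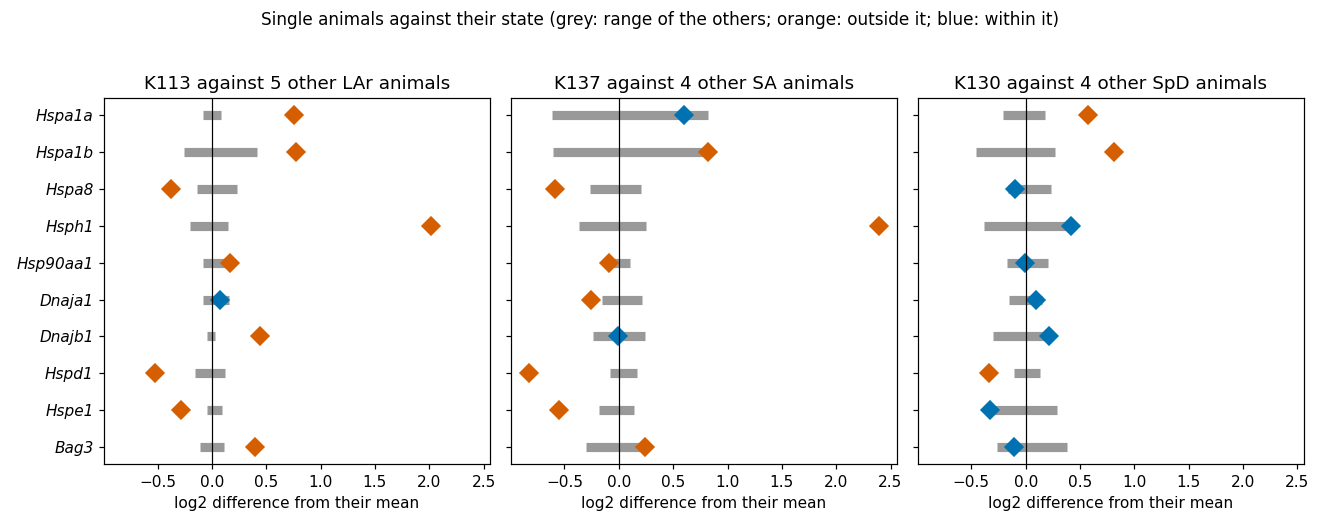
Difference of single animals (diamonds, x axis, log2 units) from the mean of the others of their state for the 10 chaperones (y axis), with gray bars for the range of those others, orange for values outside and blue for values within it. Hsph1 lies 2.01 above in K113 and 2.39 above in K137, and within the range in K130.

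The members also varied together among animals of one state. After state, sex, and experiment were removed, 39 of the 45 pairs of members had a positive Pearson's r over the 29 animals (median 0.26, from -0.57 to 0.88). By permutation test with 100000 resamples, 15 pairs passed an adjusted p under 0.05 (10 with Spearman's rho). No such share was computed for pairs of other genes, so the count does not set the members apart. The part of tissue composition in these r was not tested. Hspa1a and Hspa1b had the highest r, 0.88 (rho 0.72, adjusted permutation p = 3e-04 and 9e-04, r = 0.80 without the 2 animals farthest from the median). As near-identical copies they may share reads, so this r is a description only and does not show separate genes varying together. Hsph1 and Dnajb1 followed (r = 0.74, rho 0.70, adjusted permutation p = 3e-04 and 9e-04, r = 0.65 without 2 animals), and Hspa8 and Dnaja1 (r = 0.74, rho 0.70, adjusted permutation p = 3e-04 and 9e-04, r = 0.68 without 2 animals). Each of these couples an Hsp70 family protein with its copy or with a J-domain protein.

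Hspe1 ran against the inducible Hsp70 genes, with r = -0.57 and rho = -0.62 to Hspa1a (adjusted permutation p = 0.0056 and 0.0046, r = -0.59 without 2 animals) and r = -0.56 and rho = -0.57 to Hspa1b (adjusted permutation p = 0.0085 and 0.015, r = -0.46). Hspd1 and Hspe1 were not called as a pair (r = 0.36, rho 0.34, adjusted permutation p = 0.13 and 0.17, r = 0.29). No pair with Hsp90aa1 passed, and its r with the other 9 ran from -0.08 to 0.38.

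**Figure D5:**
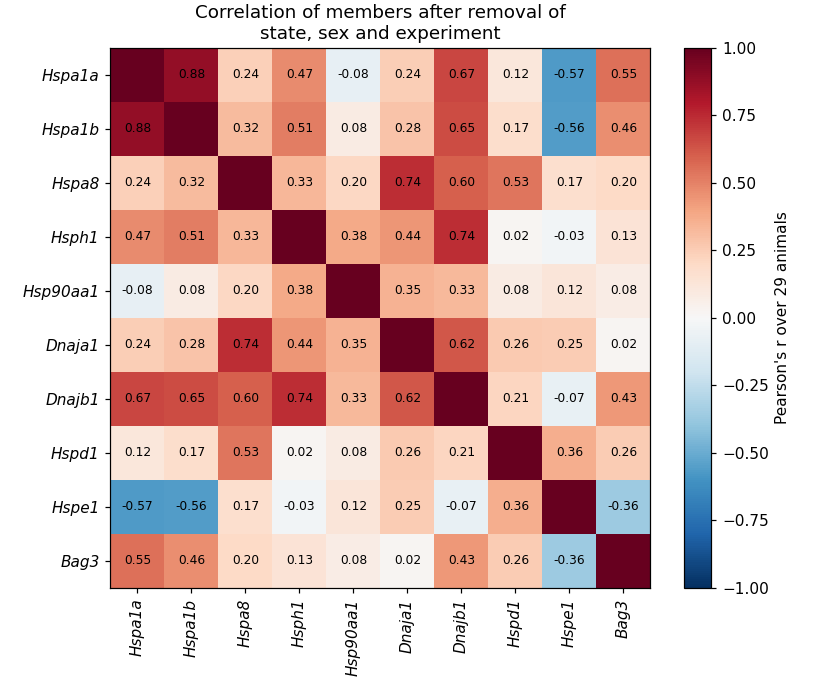
Pearson's r between the 10 chaperones (rows and columns) over 29 animals after removal of state, sex, and experiment, with color and printed number giving r. Among the cytosolic Hsp70 and J-domain genes r is positive but uneven, from 0.24 (Hspa1a with Hspa8) to 0.88 (Hspa1a with Hspa1b). Some pairs outside them are redder than the weaker of these, such as Hspa1a with Bag3 (0.55) and Hspa8 with Hspd1 (0.53). Hspe1 is negative with Hspa1a (-0.57) and Hspa1b (-0.56), and Hsp90aa1 stays between -0.08 and 0.38.

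The mean of the 10 standardized values summarized the members per animal, and it averaged 1.27 in SA, 0.28 in IBA, -0.66 in Ent, -0.62 in EAr, -0.36 in LAr, and 0.34 in SpD. Among all genes with a symbol, those most like it over the 29 animals were Hexim1 (r = 0.91), Pde12 (0.88), Abhd6 (0.87), Spty2d1 (0.87), and Dhx15 (0.86). Those most opposite were Phf7 (-0.87), Zbtb22 (-0.87), Haus1 (-0.86), Ttc25 (-0.86), and Elmo3 (-0.86). These r describe 29 animals that share the same 6 states.

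The wider chaperone network was read from 9 lists with 102 genes, of which 95 were in the table. Across states 3 of the 95 differed at q under 0.001, against the 9.34% of all genes, and 38 at q under 0.05, against 46.1%. The 3 were Stip1, which bridges Hsp70 and Hsp90, the Hsp90 partner Chordc1, and the J-domain protein Dnajb2. Stip1 averaged 12.17 in SA and 12.14 in IBA but 11.72 in Ent, 11.71 in EAr, and 11.74 in LAr, and 11.98 in SpD (q = 8.5e-05). Chordc1 averaged 9.85 in SA, 9.60 in IBA, 9.28 in Ent, 9.29 in EAr, 9.17 in LAr, and 9.49 in SpD (q = 2.6e-04). For both genes SA and IBA had the highest means of the 6 states.

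Relative to SA, Stip1 differed by -0.45 ± 0.09 in EAr (q = 6.1e-04) and -0.44 ± 0.09 in LAr (q = 7.4e-04), and Chordc1 by -0.56 ± 0.11 (q = 6.6e-04) and -0.68 ± 0.11 (q = 8.8e-05). No other of the 13 Hsp90 and cochaperone genes passed q under 0.001 in a pair. At q under 0.05, 6 of all 13 were lower in EAr than in SA (12.3% of all genes) and 5 in LAr (13.7%), Stip1 and Chordc1 among them. Dnajb2 peaked in IBA instead, at 11.86 against 11.59 in SA, 11.44 in Ent, and 11.44 in EAr, with -0.42 ± 0.06 in Ent relative to IBA (q = 3.2e-04) and IBA 0.46 ± 0.07 above EAr (q = 2.2e-04). Dnajb9, a chaperone of the endoplasmic reticulum named here after its values were seen, was the 1 further gene called in a pair, lower in SpD than in IBA (-0.48 ± 0.09, q = 7.3e-04).

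Hsf1, the transcription factor behind the heat shock response, had a q across states of 0.012. Its mean was 11.02 in SA and 11.02 in Ent, 11.12 in EAr, 11.22 in LAr, 11.27 in SpD, and 11.28 in IBA. It was thus higher in IBA than in SA (0.29, q = 0.019), and lower in Ent than in IBA (-0.26, q = 0.024). RNA levels of Hsf1 do not show the activity of its protein. Of 4 heat shock factor genes measured, 2 passed q under 0.05 across states, against 46.1% of all genes. The one besides Hsf1 was Hsf2, named here after its values were seen. Hsf2 was lower than in SA in EAr (-0.33 ± 0.08, q = 0.0067) and LAr (-0.35 ± 0.08, q = 0.0039). In the other lists, beside the same 46.1%, 4 of 8 other Hsp70 and Hsp110 genes, 8 of 14 other J-domain genes, and 1 of 8 exchange and BAG factors passed. So did 2 of 5 small heat shock proteins, 4 of 14 cytosolic chaperonin and prefoldin subunits, 4 of 15 mitochondrial chaperones and proteases, and 6 of 14 endoplasmic reticulum chaperones. Of the 15 mitochondrial genes, 3 were lower than in SA at q under 0.05 in IBA (12.5% of all genes), 0 in EAr (12.3%), and 0 in LAr (13.7%).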

How the data were processed

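RNA of 31 kidneys was polyA-selected and sequenced with a TruSeq (experiment 1) or Nugen (experiment 2) kit. Before deposit the authors trimmed the reads (cutadapt), discarded mitochondrial ones (hisat2), assigned the others to HiC_Itri_2 transcripts (Salmon), summed them to genes (tximport), computed rlog values (DESeq2), left out genes low on that scale in all states, and had limma take out the batch effect. What they deposited are these batch-corrected rlog values on the log2 scale. With no counts at hand, the only error is the variation among animals, and rlog shrinks differences of weakly measured genes.

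The authors tested counts with DESeq2. In its place, limma 3.58.1 (R 4.3.3) was fitted to all 12863 genes of 29 animals with terms for state, sex, and experiment, the variance prior following mean intensity, and p adjusted by Benjamini-Hochberg over all genes of a comparison (q). The thresholds were 0.001, as in the study, and 0.05. The fit has 21 residual degrees of freedom, with the term for experiment counted. Only the fit without that term does not count the one spent on the batch correction. Fold changes are 2 to the power of the fitted difference. All tests were 2-sided. The script was tested on simulated data, and figures were drawn with matplotlib 3.10.9 (Python 3.11.15).

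The members, lists, and tests were chosen with earlier results of these data known. The 10 members are named throughout. From each network list, genes with q under 0.001 across states (at most 4 a list) and Hsf1 are named, as are the 5 genes most and the 5 least correlated with the mean of the standardized members. Rows named by a locus number were not taken as symbols. RefSeq's mIctTri1.hap1 annotation holds 8 of the members by symbol, but on another assembly than the one used for the table, and neither positions nor sequences are given. Results were recomputed with K113 and K137 included, without the experiment term, without the sex term, without the intensity trend, with a robust prior, with animal weights, on experiment 2 alone, on genes averaging 8 or more, after median centering, on just the 2 groups compared, with Spearman's rho, and leaving out each animal. The pairs Ent/SA, EAr/SA, LAr/SA, LAr/Ent, EAr/SpD, LAr/SpD, and Ent/SpD, the second rows of a symbol, and the interaction terms were added after seeing the data.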

Additional observations from a re-analysis of the deposited data

Results flagged for a closer look

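In 80 groups of 4 to 6 animals (each member in each state, and the LAr and SA groups again with K113 or K137), 8 values lay farther from the rest of their group than Dixon's 95% critical value, which chance gives in about 1 in 20 groups. Among the 29 animals these were 3 of 60, namely Hspa1a (10.76, low) and Dnaja1 (12.82, high) in the Ent animal K8, and Hsph1 (10.67, high) in the EAr animal K154. K8 was the lowest Ent animal for Hspa1a and the highest for Dnaja1.

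With the animals shown apart included, 5 of 20 groups had such a value. K113 and K137 were left out by the study as outliers in these same data, so the rate of 1 in 20 is no yardstick for these groups. In K113 these were Hspa1a (12.50), Hsph1 (11.93), and Dnajb1 (11.72), all high for LAr. In K137 they were Hsph1 (13.52), high for SA, and Hspd1 (12.01), low for SA. Hsph1 was the 1 member set apart in both animals. The collecting duct and inner medulla markers averaged 12.97 in K113 and 13.65 in K137, and their part in these values was not tested.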

How the results depend on the processing

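Counts are of the 10 members at q under 0.001, with the share of all genes called in either direction in parentheses. A count with no share beside it is not set against all genes. Some small moves are not listed. Across states the count of 5 (9.34%) became 9 at q under 0.05 (46.1%), 7 with animal weights (18.9%), and 0 in all 31 animals (5.58%). For IBA/SA the count of 1 (3.15%) became 4 at q under 0.05 (22.9%), 2 without the term for experiment, and 2 without the intensity trend. It became 0 in all 31 animals, in experiment 2 only, and in the fit of the 2 groups. For Ent/SA the count of 1 (0.855%) became 7 at q under 0.05 (14.8%), 4 without the term for experiment, and 2 with animal weights. It became 0 in all 31 animals, in experiment 2 only, and in the fit of the 2 groups. For EAr/SA the count of 3 (4.49%) became 9 at q under 0.05 (24.1%), 5 with animal weights, and 5 in experiment 2 only. It became 1 in all 31 animals and 0 in the fit of the 2 groups. For LAr/SA the count of 4 (5.47%) became 6 at q under 0.05 (27.4%), 1 in all 31 animals, and 1 in the fit of the 2 groups. At q under 0.05, counts of 0 became 2 for Ent/IBA (13.1%), 1 for IBA/LAr (18%), 1 for SpD/IBA (11.9%), and 4 for SA/SpD (10.5%). They also became 2 for IBA/EAr (17.7%), 3 for Ent/SpD (10.6%), 3 for EAr/SpD (19.2%), and 1 for LAr/SpD (19.1%). At q under 0.001, animal weights gave 2 for Ent/IBA and 1 for IBA/LAr, and experiment 2 only gave 1 for EAr/SpD and 1 for LAr/SpD. With 1 animal left out, counts ranged from 1 to 6 across states, 0 to 2 for IBA/SA, 0 to 1 for Ent/IBA and IBA/LAr, 0 to 3 for Ent/SA, 0 to 4 for EAr/SA, and 2 to 4 for LAr/SA. Of the 43 differences of members called at q under 0.05, 27 passed it in all 31 animals, 22 in fits of the 2 groups, 36 in experiment 2 only, 37 with animal weights, 34 without K130, 39 to 43 without any other 1 animal, and 42 or 43 in each other setting. No difference of a member called at q under 0.05 changed sign in any of these settings, and the causes were not tested. Median centering kept the sign of 9 or 10 of the members in each pair and moved none by more than 0.04. With Spearman in place of Pearson, 10 pairs of members passed in place of 15. No paired analysis was possible because no animal number is shared between states. The planned searches of promoters and proteins were not run, since no sequence was at hand. The unknown depth limits what can be said of low values, and 4 SA animals enter every comparison with SA.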
